A study of Homo sapiens with 8 samples.

Results

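The data described here are the CUT&Tag peaks around 10 genes, the mucins MUC1, MUC2, MUC4, MUC5AC, MUC5B, MUC13 and MUC17 and the trefoil factors TFF1, TFF2 and TFF3. The genes were chosen by name, as secreted and membrane products of mucous epithelium, from the 20136 protein-coding genes of the annotation by a rule that uses no measured value. The choice was nevertheless made with earlier results of these data known. In CUT&Tag, a transposase bound to an antibody against a chromatin mark cuts the DNA nearby, and the fragments are sequenced and called as peaks. The study profiled succinylation of histone H3 lysine 23 (H3K23su) and acetylation of histone H3 lysine 27 (H3K27ac) in HCT15, an established colorectal cancer cell line. It compared parental cells given DMSO (HCT15-Pa) with the 5-fluorouracil-resistant derivative, labelled with 20 μg/ml of the drug (HCT15-FR), with 2 libraries for each mark and line, 8 in all. Per the study's methods, the resistant cells were kept under 5-fluorouracil and were then moved to drug-free medium before the experiments, so selection and drug cannot be told apart between the 2 lines. The labels do not say whether the replicates came from separate cultures, so the spread between them may be technical.

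Gel-forming mucins (MUC2, MUC5AC and MUC5B) are secreted and polymerise into mucus, of which MUC2 is the main one in the colon, where goblet cells make it. Transmembrane mucins (MUC1, MUC4, MUC13 and MUC17) stay on the apical surface of epithelial cells, and the trefoil factors are small secreted peptides that accompany mucins and take part in epithelial repair, with TFF3 the trefoil factor of intestinal goblet cells and TFF1 and TFF2 best known from the stomach. H3K27ac marks active promoters and enhancers, whereas H3K23su is a less studied acyl mark, and neither peak list measures the mRNA.

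The genes lie in 6 loci. MUC2, MUC5AC and MUC5B are neighbours at 11p15, and TFF1, TFF2 and TFF3 are neighbours at 21q22, so the windows within each of these loci overlap and share peaks. A peak was assigned to a start site when it overlapped the 2 kb on either side of the transcription start site (TSS), and the window of a gene was its body with 50 kb on either side. The score of a peak is the −log10 p-value of the peak caller, and it is given with its percentile among the peaks of the same library, since scores are not on 1 scale across libraries. Positions relative to a TSS are in bp and count along the direction of transcription, with negative values upstream. The lists hold no read counts, so the read depth is unknown here, and a missing peak means only that no peak was listed. A peak in a cell population does not tell a larger share of marked cells from more mark per cell.

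The H3K23su lists held 65364 to 68365 peaks and the H3K27ac lists 70600 to 76676. Together the peaks covered 33.5 and 33.0 Mb in the HCT15-Pa libraries and 40.0 and 39.4 Mb in the HCT15-FR libraries for H3K23su, and 39.5, 38.8, 46.3 and 46.6 Mb, in the same order, for H3K27ac. Peaks were thus longer on average in HCT15-FR (581 to 586 bp against 505 to 507 bp for H3K23su), and this difference bears on every covered length below. Of 10 colon epithelial marker genes, 7 had an H3K23su peak and 9 an H3K27ac peak at the TSS in all 4 libraries of the mark. CDX1 and CDH17 of that list had H3K23su in HCT15-FR alone, 2 of 10 as among the mucin and trefoil factor genes, and CDX1 had H3K27ac in HCT15-FR alone. The leukocyte genes PTPRC and CD3E, the fibroblast genes COL3A1 and PDGFRB and the endothelial gene VWF had no peak in any library. The fibroblast gene COL1A1 carried H3K27ac in all 4 libraries and H3K23su in all but HCT15-Pa replicate 1. The leukocyte gene CD79A had H3K23su in both HCT15-FR libraries and no HCT15-Pa library. The leukocyte gene CD68 and the endothelial gene CDH5 were listed in some libraries. PECAM1, also chosen as an endothelial marker, was not found in the annotation.

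At the start sites, most of the 10 genes were occupied in both lines, and TFF3 was the gene that separated the lines in both marks. For H3K23su, 7 of the 10 genes had a peak in all 4 libraries (54.7% of all protein-coding genes did). MUC5B and TFF3 had one in each HCT15-FR library but in no HCT15-Pa library, a pattern of 1.87% of all genes, and MUC4 had none (33.4% of all genes). No gene of the 10 had any other mixture, against 8.31% of all genes. No gene of the 10 showed the opposite pattern, which 1.71% of all genes did. For H3K27ac, 6 of the 10 genes were occupied in all 4 libraries (59.0% of all genes), TFF3 in both HCT15-FR libraries and no HCT15-Pa library (1.42%), none in HCT15-Pa alone (2.19%), and MUC4, MUC5B and MUC17 in some libraries of each line or in 3 of the 4 (10.9%). These counts compare 2 libraries with 2, and presence was not given a p-value.

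**Figure D1:**
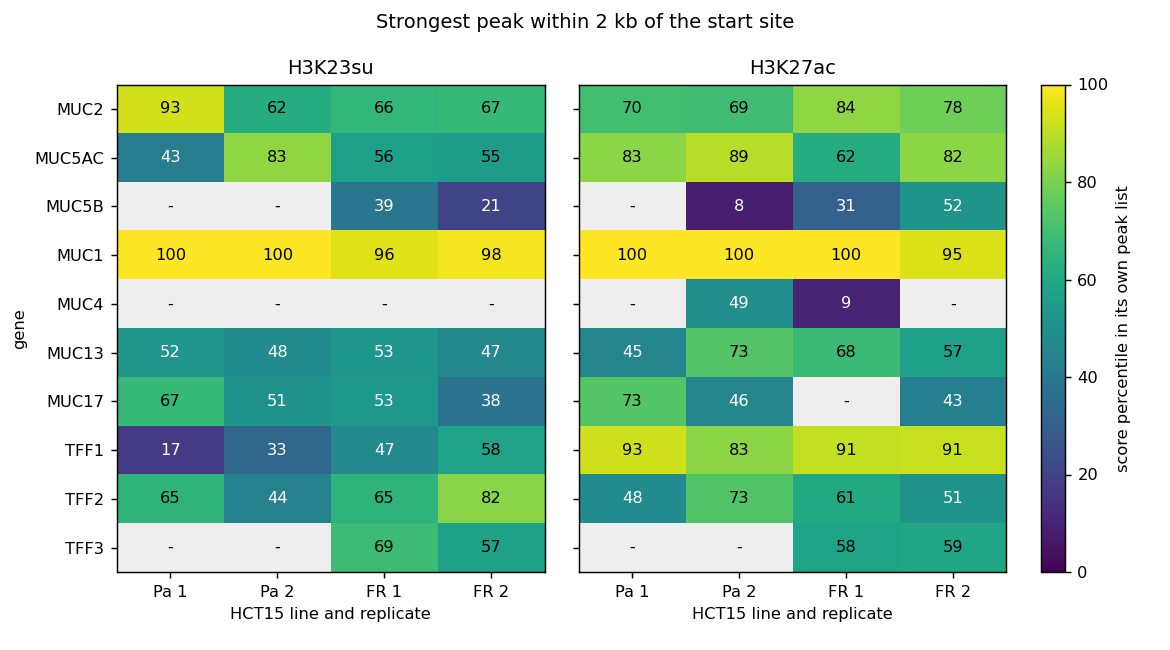
Score percentile, within its own peak list, of the strongest peak within 2 kb of the TSS of each gene (rows) in each library (columns; Pa and FR are HCT15-Pa and HCT15-FR, with the replicate number), for H3K23su (left) and H3K27ac (right); grey cells with a dash hold no peak. TFF3 has cells in the HCT15-FR columns alone in both panels, MUC5B does so for H3K23su, and MUC1 is at or above the 94.5th percentile in all 8 libraries.

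TFF3, the trefoil factor of goblet cells, had no H3K23su peak at its TSS (chromosome 21, 43735519 on the minus strand, hg19) in either HCT15-Pa library. HCT15-FR replicate 1 had a peak from −407 to −99 bp with a score of 5.38 (percentile 68.5), and replicate 2 one from −418 to 45 bp with a score of 4.85 (percentile 57.2). H3K27ac was placed in the same way, with no peak in HCT15-Pa and peaks from −390 to 127 bp (5.25, percentile 58.0) and from −444 to 74 bp (5.28, percentile 58.7) in HCT15-FR. The 4 peaks thus lay over the same stretch, and all 4 scored above the median of their own list. The pattern was shared by 88 of the 20136 genes (0.437%), and 0.750% of all genes had the reverse in both marks. Among the genes of the other lists, the goblet cell genes BEST2 and RETNLB and the colon epithelial marker CDX1 carried the same presence over the 8 libraries.

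Inside TFF3 the order of the lines was the other way round. H3K27ac covered 410 and 499 bp of the TFF3 gene body in HCT15-Pa and 128 and 75 bp in HCT15-FR. The HCT15-Pa values came from an intronic region at chromosome 21, 43732564 to 43733148, centred at 2663 bp, with scores of 4.36 and 3.15 (percentiles 50.7 and 1.97) and no HCT15-FR peak. The HCT15-FR values were the ends of the peaks that crossed the TSS. The mean difference, HCT15-FR minus HCT15-Pa, was −353 bp, and the groups did not overlap (two-sided exact permutation test, p = 0.333, n = 2 and 2, the smallest p that 2 libraries against 2 can give). No test of this size can therefore pass a threshold, and the p-values below say only whether the groups were separated. A further H3K27ac region downstream of the gene, chromosome 21, 43729698 to 43729919, centred at 5711 bp, was listed in HCT15-FR alone (7.75 and 5.83, percentiles 78.5 and 65.1). Because an annotated start of a shorter TFF3 transcript lies near the intronic region, counting any annotated start places TFF3 among the genes with H3K27ac in all 4 libraries, while its H3K23su call stays as above.

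TFF1 and TFF2, the other 2 trefoil factors, were occupied in both lines, and H3K23su covered more of the sequence around their starts in HCT15-FR. H3K23su covered 608 and 504 bp of the 4 kb around the TFF1 start in HCT15-Pa, and 1737 and 1227 bp in HCT15-FR. At the TFF2 start it covered 510 and 678 bp in HCT15-Pa and 1316 and 821 bp in HCT15-FR. Both genes were separated between the lines (ratios of 2.67 and 1.80, exact permutation p = 0.333 each). At TFF2 the window edge cut a peak of HCT15-Pa replicate 2 that ran from 1628 to 2277 bp. Over whole peaks the TFF2 H3K23su lengths of the lines overlapped. In H3K27ac, TFF1 covered 1050 and 871 bp in HCT15-Pa and 1418 and 1210 bp in HCT15-FR, which were also separated (exact permutation p = 0.333), whereas after division by the total covered length of each library the groups overlapped. The TFF1 H3K27ac peaks were strong, with scores of 10.7 and 7.33 in HCT15-Pa and 11.6 and 11.9 in HCT15-FR. By percentile the lines overlapped (92.9 and 82.7 against 90.7 and 91.5). TFF2 covered 638 and 853 bp in HCT15-Pa and 1137 and 787 bp in HCT15-FR in H3K27ac, which overlapped (exact permutation p = 0.667). TFF2 carried 2 peak positions, one at the TSS or just before it and one between 1316 and 2376 bp downstream, and the downstream one was present in all 8 libraries while the one at the TSS was missing from HCT15-Pa replicate 1 in both marks.

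**Figure D2:**
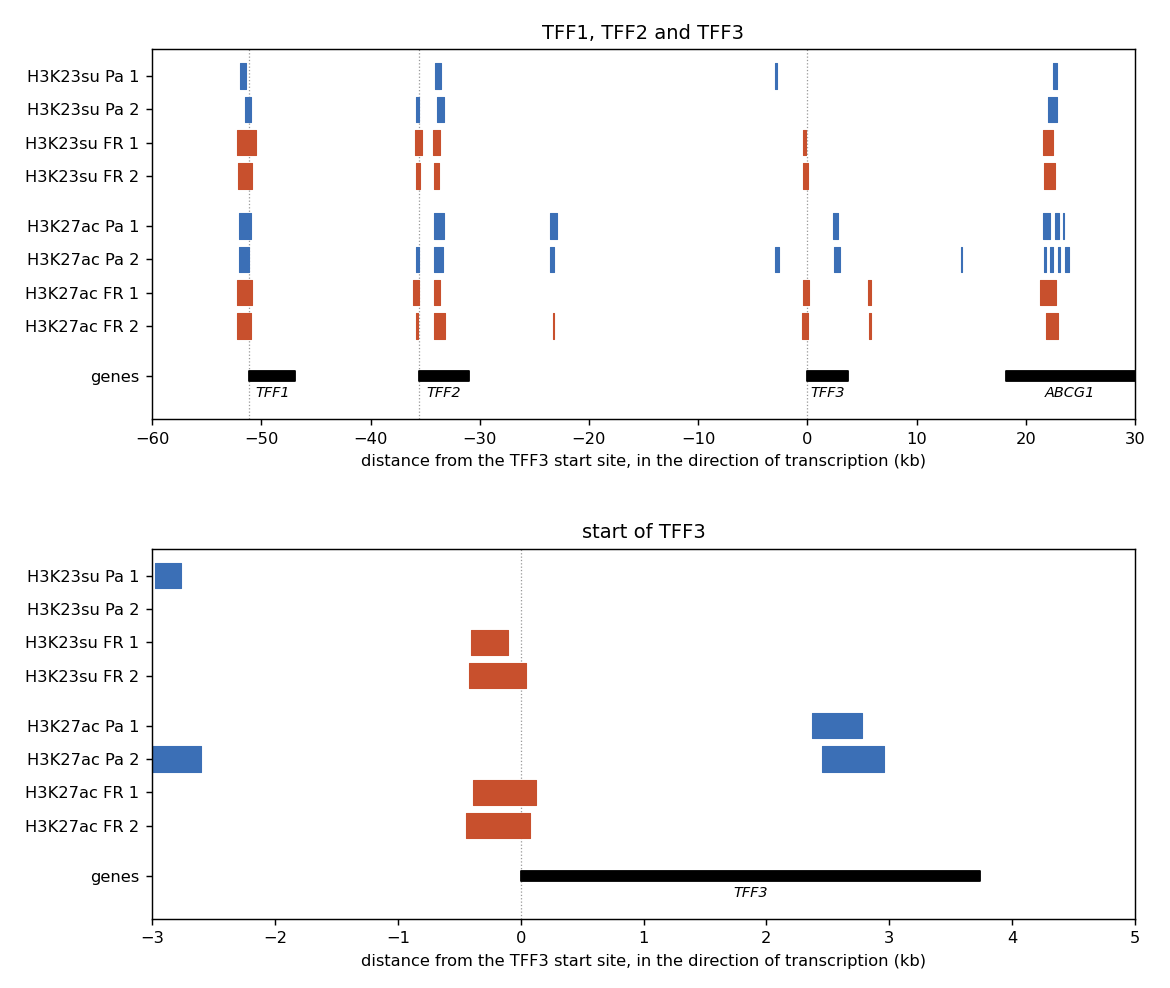
Peaks of each library over the 3 trefoil factor genes (top) and around the start of TFF3 (bottom), plotted by distance in kb from the TFF3 TSS in the direction of transcription; blue bars are HCT15-Pa peaks, red bars HCT15-FR peaks, black bars gene bodies and dotted lines start sites. At position 0 the red tracks of both marks hold a bar and the blue tracks hold none, and the H3K27ac bars inside TFF3, centred on the region at 2663 bp, are blue.

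MUC2, the main gel-forming mucin of the colon, had peaks in all 8 libraries, and these lay upstream of the TSS (chromosome 11, 1074875, plus strand). The H3K23su peaks spanned −1778 to −1286 and −1864 to −1152 bp in HCT15-Pa and −2116 to −1160 and −2141 to −857 bp in HCT15-FR. At the start itself a second H3K23su region (chromosome 11, 1074469 to 1075004) was listed in HCT15-FR alone, from −406 to 129 bp with a score of 3.50 and from −89 to 95 bp with a score of 3.47. These were among the weakest peaks of their lists (percentiles 9.83 and 8.41), and no H3K27ac region overlapped them. Covered H3K23su length around the start was 493 and 713 bp in HCT15-Pa and 1377 and 1329 bp in HCT15-FR (exact permutation p = 0.333), whereas H3K27ac covered 789 and 759 bp in HCT15-Pa and 631 and 642 bp in HCT15-FR (exact permutation p = 0.333). By score, however, H3K27ac was higher in HCT15-FR (8.92 and 7.61, percentiles 83.6 and 78.1). The HCT15-Pa scores were 5.42 and 5.46 (percentiles 69.6 and 69.2). The 300 bases before the MUC2 TSS, chr11:1074575-1074874 of hg19 on the plus strand, are printed 5′ to 3′. The weak HCT15-FR peaks lay over all of them (replicate 1) or over their end (replicate 2). This and the sequences below were searched on both strands for 6 short motifs, AP-1 (TGANTCA), TEAD (GGAATG), the Krüppel-like factor (KLF) pattern GGGNGTGG, FOXA (TGTTTAC), HNF4 (CAAAGTCCA) and CDX2 (TTTATNG), and matches are given as descriptions of the letters. Capitals mark, in order, a CDX2, an AP-1 and a KLF pattern on either strand, which do not overlap and which occurred in 9.17%, 5.77% and 21.4% of the same 300 bases before all 20136 genes. The KLF pattern lay under the peaks of both HCT15-FR libraries, and the other patterns under that of replicate 1 alone.
MUC2: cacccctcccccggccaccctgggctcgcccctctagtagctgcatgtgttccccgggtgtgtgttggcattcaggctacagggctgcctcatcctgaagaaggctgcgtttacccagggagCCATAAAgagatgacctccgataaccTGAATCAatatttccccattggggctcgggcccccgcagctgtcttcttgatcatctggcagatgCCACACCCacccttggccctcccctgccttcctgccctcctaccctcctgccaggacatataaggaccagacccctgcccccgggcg

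MUC5AC, a gel-forming mucin best known from stomach and airway, was occupied in all 8 libraries, mainly by a peak inside the gene between 1425 and 2160 bp from the TSS. Its H3K27ac scores were 7.20 and 9.22 in HCT15-Pa and 5.55 and 8.59 in HCT15-FR (percentiles 82.8, 89.3, 61.8 and 82.5). H3K23su scores at the same place were 4.16 and 5.85 in HCT15-Pa and 4.80 and 4.77 in HCT15-FR. By percentile both HCT15-FR libraries lay below both HCT15-Pa libraries for H3K27ac, and the lines overlapped for H3K23su (42.5 and 83.5 against 56.4 and 55.1). Covered H3K27ac length within 2 kb of the start was 404 and 394 bp in HCT15-Pa against 474 and 576 bp in HCT15-FR. These lengths were cut by the 2 kb edge, since the peaks ended at 2079 and 2160 bp in HCT15-Pa and 2054 and 2124 bp in HCT15-FR. Over the whole peaks the H3K27ac lengths of the lines overlapped. H3K23su covered 474 and 404 against 529 and 634 bp (exact permutation p = 0.333 for each mark). After division by total covered length the cut H3K27ac lengths stayed separated and the H3K23su groups overlapped. A peak across the annotated TSS was listed for H3K23su in HCT15-Pa replicate 1 (3.44) and HCT15-FR replicate 2 (4.13). The MUC5AC gene record in the annotation was carried over from an older release, names no canonical transcript and holds 50000 unresolved bases, so its start (chromosome 11, 1151580) is the end of the record and peaks in the gap cannot be listed.

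MUC5B, the gel-forming mucin of airways and glands, had no H3K23su peak near its TSS (chromosome 11, 1244296) in HCT15-Pa. HCT15-FR had one from 308 to 1743 bp (4.23, percentile 39.3) and one from −144 to 1593 bp (3.76, percentile 20.6). The peaks were long and of low rank. With the stronger 50% of each list none remained, and with any annotated start MUC5B counted as occupied in all 4 libraries. H3K27ac at MUC5B covered 0 and 145 bp in HCT15-Pa and 233 and 362 bp in HCT15-FR, at positions that differed from library to library. Its presence over the 8 libraries was shared by 25 genes (0.124%), none of them in the lists below.

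MUC1, a transmembrane mucin of most secretory epithelia, carried the highest-ranked peaks of the start sites of the 10 genes. H3K27ac scores of its peak between 1086 and 1504 bp inside the gene were 37.2 and 31.0 in HCT15-Pa and 42.9 and 14.0 in HCT15-FR, and H3K23su scores were 14.2 and 13.4 in HCT15-Pa and 9.22 and 11.03 in HCT15-FR. The H3K23su scores were lower in both HCT15-FR libraries, whereas the H3K27ac scores of the lines overlapped. The MUC1 peak lay in a tandem repeat of hg19, in which every base of the H3K23su region (chromosome 1, 155161230 to 155161589) equalled the base 60 positions further on. It is the repeat of the MUC1 tandem repeat domain. The next lines give 2 units of the repeat, chr1:155161350-155161469 of hg19 on the minus strand, 5′ to 3′, with the first unit in capitals.
MUC1 repeat: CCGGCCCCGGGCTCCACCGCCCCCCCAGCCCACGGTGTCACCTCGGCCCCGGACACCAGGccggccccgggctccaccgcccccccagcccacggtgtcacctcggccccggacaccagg

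Repeats of this kind made up a larger share of the peaks of these genes than of all peaks. A region was called a tandem repeat when at least 70% of its bases equalled the base at 1 fixed distance of 10 to 200 bp. This held for 10 of the 106 H3K23su regions in the windows (9.43%, against 1.09% of all 122500 regions) and for 13 of 140 H3K27ac regions (9.29%, against 1.42% of 133786). The MUC2 region 11:1092823 to 1093523, inside the gene, repeated every 138 bp and was in the top 1% of every H3K23su list (scores of 12.2, 10.8, 13.5 and 13.8), and its H3K27ac counterpart scored 29.6, 23.9, 24.9 and 32.6. In MUC4, repeats with distances of 22 to 120 bp lay under peaks in the gene body. The part of repeated sequence in these peak heights was not tested.

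MUC1 also had an upstream peak in every library, and it was higher in rank in HCT15-FR for H3K23su. The upstream H3K23su scores nearest the TSS were 3.92 and 3.81 in HCT15-Pa (percentiles 31.2 and 25.8) and 5.18 and 5.12 in HCT15-FR (percentiles 64.7 and 63.1). The upstream H3K27ac scores were 9.30 and 6.76 in HCT15-Pa and 11.5 and 10.7 in HCT15-FR, but by rank within the lists the lines overlapped (percentiles 90.0 and 79.8 against 90.4 and 88.9). Around the start, H3K23su covered 715 and 606 bp in HCT15-Pa and 904 and 887 bp in HCT15-FR, and H3K27ac 798 and 856 against 940 and 1313 bp (ratio of 1.36 in each mark, exact permutation p = 0.333 each). After division by total covered length the H3K27ac groups overlapped and the H3K23su groups did not.

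MUC4, a transmembrane mucin that binds ERBB2, lacked an H3K23su peak at its TSS in all 4 libraries. H3K27ac was listed there in HCT15-Pa replicate 2 (score 4.35) and in HCT15-FR replicate 1 (3.33), that is, in 1 library of each line. Its gene body carried long tracts of both marks, 3140 and 3271 bp of H3K23su in HCT15-Pa against 4383 and 3601 bp in HCT15-FR, and 5420 and 4824 bp of H3K27ac against 4211 and 5589 bp. The H3K23su groups were separated (exact permutation p = 0.333) and the H3K27ac groups were not (exact permutation p = 1.00), and after division by total covered length the H3K23su groups overlapped as well. Regions present in all 4 libraries of each mark lay inside the gene (H3K23su 3:195530872, centred at 7121 bp) and upstream (H3K23su 3:195547705, centred at −9554 bp, and 3:195550112, centred at −12116 bp).

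MUC13, a transmembrane mucin abundant in the intestine, was occupied in all 8 libraries, and the marks moved in opposite directions in covered length. H3K23su covered 517 and 514 bp around the TSS (chromosome 3, 124653595, minus strand) in HCT15-Pa and 375 and 343 bp in HCT15-FR. H3K27ac covered 1407 and 1076 bp in HCT15-Pa and 2097 and 2358 bp in HCT15-FR. Neither pair of groups overlapped (exact permutation p = 0.333 each). The H3K23su peak lay from −1588 to −1072 bp in HCT15-Pa replicate 1, and from −1583 to −1209 and −1648 to −1306 bp in HCT15-FR, but from 315 to 828 bp in HCT15-Pa replicate 2, so the 2 parental libraries did not list the same peak. The H3K23su scores were 4.41 and 4.32 in HCT15-Pa and 4.65 and 4.48 in HCT15-FR. By percentile the lines overlapped (52.2 and 48.4 against 52.6 and 47.1).

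MUC17, a transmembrane mucin of the enterocyte brush border, had H3K23su peaks at 2 places, used unequally by the lines. H3K23su in HCT15-Pa was listed from −1468 to −1318 bp (4.91) and from −1508 to −1208 bp (4.39), inside the neighbouring MUC12 gene, and no HCT15-FR peak lay there. HCT15-FR had its peaks from 1792 to 1971 bp (4.67) and from 1638 to 1924 bp (4.21), where HCT15-Pa replicate 1 also had one (3.70). Covered H3K23su length was 438 and 301 bp in HCT15-Pa and 180 and 287 bp in HCT15-FR (exact permutation p = 0.333). H3K27ac covered 644 and 1104 bp in HCT15-Pa and 0 and 786 bp in HCT15-FR, at the same 2 places in HCT15-Pa and in HCT15-FR replicate 2, which overlapped (exact permutation p = 0.667).

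Over the whole windows, H3K23su coverage was larger in HCT15-FR for most of the genes. It was higher in both HCT15-FR libraries than in both HCT15-Pa libraries for 9 of the 10 genes, MUC5B being the exception, whereas 48.1% of all genes were higher and 12.2% lower by the same rule. The median ratio of the 10 genes was 1.63, against 1.20 over the 18362 genes with coverage in HCT15-Pa. TFF1 and TFF2 had identical values, 2575 and 2714 bp in HCT15-Pa and 5309 and 4012 bp in HCT15-FR. Those 2 genes are thus not separate measurements in these counts. After division by the total covered length of each library, 6 genes were higher and 2 (MUC4 and MUC5B) lower, against 27.5% and 24.3% of all genes. MUC1 covered 4035 and 3847 bp in HCT15-Pa and 6836 and 7128 bp in HCT15-FR. TFF3 covered 1097 and 1775 bp in HCT15-Pa and 2599 and 2654 bp in HCT15-FR, a ratio of 1.83. At MUC4 the lines were separated by little, 7926 and 7909 bp against 8166 and 8236 bp, and that order was reversed after the division.

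H3K27ac coverage of the windows did not move with the line in the same way. It was higher in both HCT15-FR libraries for 4 genes (MUC1, MUC13, MUC17 and TFF3) and lower for MUC4, against 48.3% and 13.1% of all genes, and the median ratio was 1.02, against 1.14 over 19057 genes. After the division 2 genes (MUC1 and MUC13) were higher and 6 lower (24.1% and 30.7% of all genes). MUC13 covered 5285 and 4919 bp of H3K27ac in HCT15-Pa and 9414 and 9309 bp in HCT15-FR, a ratio of 1.83. MUC1 covered 5769 and 5421 bp and 9612 and 9173 bp, a ratio of 1.68. MUC4 covered 12410 and 11763 bp in HCT15-Pa and 11133 and 11286 bp in HCT15-FR. The windows of TFF1, TFF2, MUC2, MUC5AC and MUC5B overlapped between the lines, with ratios of 0.93 to 1.02 and exact permutation p of 0.667 to 1.00.

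**Figure D3:**
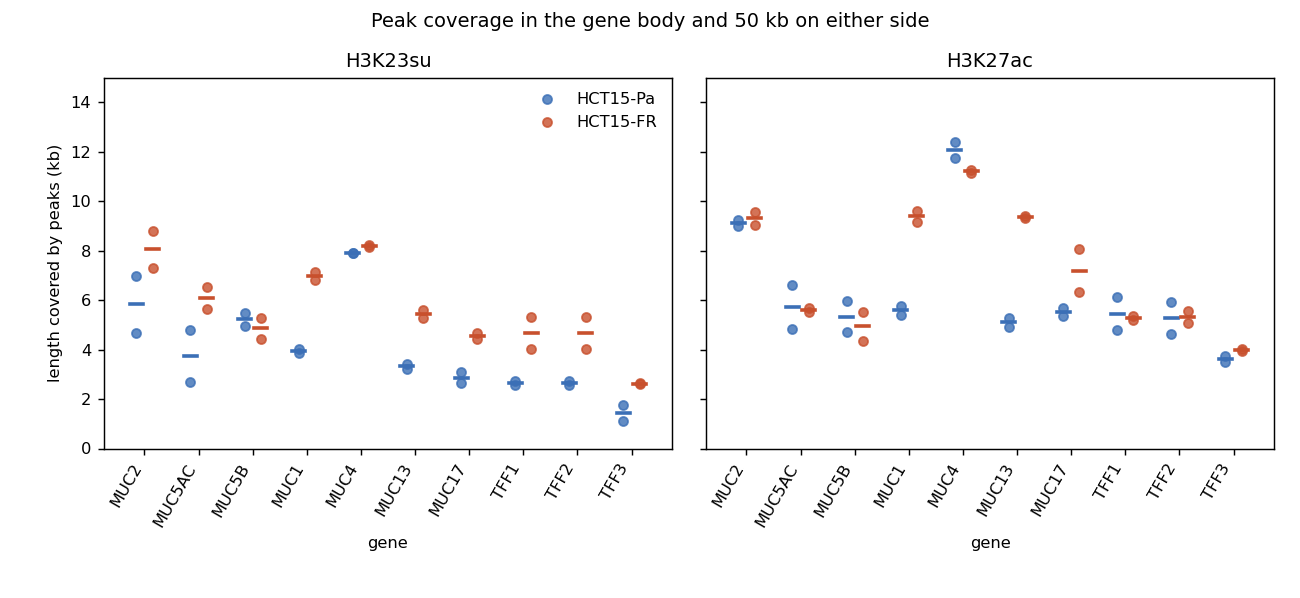
Length covered by peaks, in kb on a linear axis from 0, in the gene body and 50 kb on either side of each gene, for H3K23su (left) and H3K27ac (right); points are single libraries (blue HCT15-Pa, red HCT15-FR) and short lines the means of 2. The red H3K23su points lie above both blue points for every gene except MUC5B, and the widest H3K27ac gaps are at MUC13 and MUC1.

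In the narrower scopes the counts were as follows. Within 2 kb of the TSS, H3K23su was higher in both HCT15-FR libraries for 7 genes and lower for 2 (28.7% and 5.56% of all genes), and H3K27ac for 6 and 1 (23.1% and 9.41%). In the gene bodies, H3K23su was higher for 4 and lower for none (30.7% and 9.97%), and H3K27ac higher for 4 and lower for 2, MUC1 and TFF3 (32.2% and 11.3%). After the division by total covered length, the start sites were higher for 6 and lower for 2 genes in H3K23su (14.1% and 17.3% of all genes) and higher for 4 and lower for 1 in H3K27ac (8.04% and 30.2%). The gene bodies were then higher for 2 and lower for 1 in H3K23su (18.8% and 19.3%) and higher for 2 and lower for 4 in H3K27ac (18.9% and 24.5%).

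Merging the 4 lists of a mark gave 106 H3K23su and 140 H3K27ac regions in the windows. Of the H3K23su regions, 11 (10.4%) were listed in both HCT15-FR libraries alone and 5 (4.72%) in both HCT15-Pa libraries alone, against 7.95% and 5.01% of all regions. Of the H3K27ac regions, 13 (9.29%) were HCT15-FR only and 5 (3.57%) HCT15-Pa only, against 9.08% and 4.53%. Regions listed in other mixtures numbered 56 (52.8%, against 63.2% of all) and 77 (55.0%, against 61.2%). The HCT15-FR-only and HCT15-Pa-only shares were close to those of all regions. Of the 106 H3K23su regions, 87 (82.1%) overlapped an H3K27ac region, against 63.4% of all H3K23su regions, and of the 34 present in all 4 libraries 32 (94.1%, against 80.3%) overlapped an H3K27ac region of the same kind.

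Regions that were HCT15-FR only in both marks numbered 4 of the 11 H3K23su regions (36.4%, against 35.8% of all HCT15-FR-only regions), namely the TFF3 start, a region in MUC12 and 2 regions in HEG1. HEG1, which encodes a transmembrane receptor of vascular and cardiac development, lies next to MUC13, and its introns held both regions upstream of MUC13. The H3K23su region at chromosome 3, 124693593 to 124693994, centred at −40198 bp from the MUC13 TSS, scored 4.63 and 4.39 in HCT15-FR (percentiles 52.2 and 44.3), and the H3K27ac region over it, 124693049 to 124694034, scored 4.38 and 4.96. Another lay at 124714480 to 124715065 for H3K23su (4.04 and 3.95), overlapping 124714245 to 124714625 for H3K27ac (4.68 and 4.90), centred at −61177 and −60840 bp. H3K27ac was also HCT15-FR only at 124691156 to 124691632 (5.22 and 5.60). Of the 15 H3K27ac regions of the MUC13 window, 3 were HCT15-FR only and none HCT15-Pa only, against 9.08% and 4.53% of all regions. The central 300 bases of the H3K23su region, chr3:124693644-124693943 of hg19 on the plus strand, hold the TEAD pattern once (in capitals, 17.2% of all H3K23su region centres) and none of the other patterns. An AP-1 pattern (TGACTCA) lies just before these bases, still inside the H3K23su region. It falls in the centre of the overlapping H3K27ac region (AP-1 in 14.0% of all H3K27ac region centres).
HEG1 intron upstream of MUC13: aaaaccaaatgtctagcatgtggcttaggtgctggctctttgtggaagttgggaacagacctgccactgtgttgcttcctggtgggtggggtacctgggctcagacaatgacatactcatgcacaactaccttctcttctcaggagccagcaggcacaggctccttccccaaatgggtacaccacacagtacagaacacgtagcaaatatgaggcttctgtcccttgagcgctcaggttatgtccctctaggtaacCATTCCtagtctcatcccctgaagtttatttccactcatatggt

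The highest-ranked H3K27ac region of the windows listed in HCT15-FR alone lay in an intron of MUC12, a transmembrane mucin gene just upstream of MUC17. It spanned chromosome 7, 100626649 to 100627360, centred at −36358 bp from the MUC17 TSS, and scored 8.04 and 10.6 (percentiles 79.9 and 88.8). The H3K23su region within it, 100626753 to 100627024, scored 3.52 and 6.36 (percentiles 10.4 and 81.2), so the 2 HCT15-FR libraries ranked it far apart. Its sequence on the plus strand, chr7:100626753-100627024 of hg19, holds an AP-1, a TEAD and a CDX2 pattern, in this order in capitals, which occurred in 13.6%, 17.2% and 10.5% of all H3K23su region centres.
MUC12 intron upstream of MUC17: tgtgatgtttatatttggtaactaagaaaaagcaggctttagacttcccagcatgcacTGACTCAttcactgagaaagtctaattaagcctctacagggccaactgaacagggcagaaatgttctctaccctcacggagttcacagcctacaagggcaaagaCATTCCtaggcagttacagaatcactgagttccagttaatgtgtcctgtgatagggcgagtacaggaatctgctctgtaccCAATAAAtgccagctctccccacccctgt

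HCT15-Pa-only regions in both marks numbered 1 of the 5 H3K23su regions (20.0%, against 19.8% of all). It lay at the start of MUC20, a transmembrane mucin gene beside the 3′ end of MUC4. The H3K23su region at chromosome 3, 195447852 to 195448591, scored 5.86 and 5.49 in HCT15-Pa (percentiles 83.7 and 78.7), and the H3K27ac region 195447743 to 195448504 scored 5.26 and 4.40. Around the MUC20 start H3K23su covered 733 and 1157 bp in HCT15-Pa and 167 and 146 bp in HCT15-FR, and H3K27ac 634 and 1090 bp against 296 and 445 bp (exact permutation p = 0.333 each). A peak between 1465 and 1930 bp inside MUC20 remained in all 8 libraries. The central bases of the parental region, chr3:195448072-195448371 of hg19 on the plus strand, held none of the 6 patterns and are printed below. Those of the HCT15-FR-only HEG1 region at 3:124714480 also held none. Other HCT15-Pa-only regions did hold a match, among them a KLF pattern at 11:1318372 (H3K23su) and an AP-1 pattern at 11:1324692 (H3K27ac).
MUC20: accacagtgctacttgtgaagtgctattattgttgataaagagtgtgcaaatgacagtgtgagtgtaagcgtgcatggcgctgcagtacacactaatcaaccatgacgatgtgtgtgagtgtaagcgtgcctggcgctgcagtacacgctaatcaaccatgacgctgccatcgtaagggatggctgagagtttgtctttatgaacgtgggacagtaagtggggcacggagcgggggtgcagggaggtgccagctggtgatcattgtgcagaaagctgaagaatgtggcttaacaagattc

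**Figure D4:**
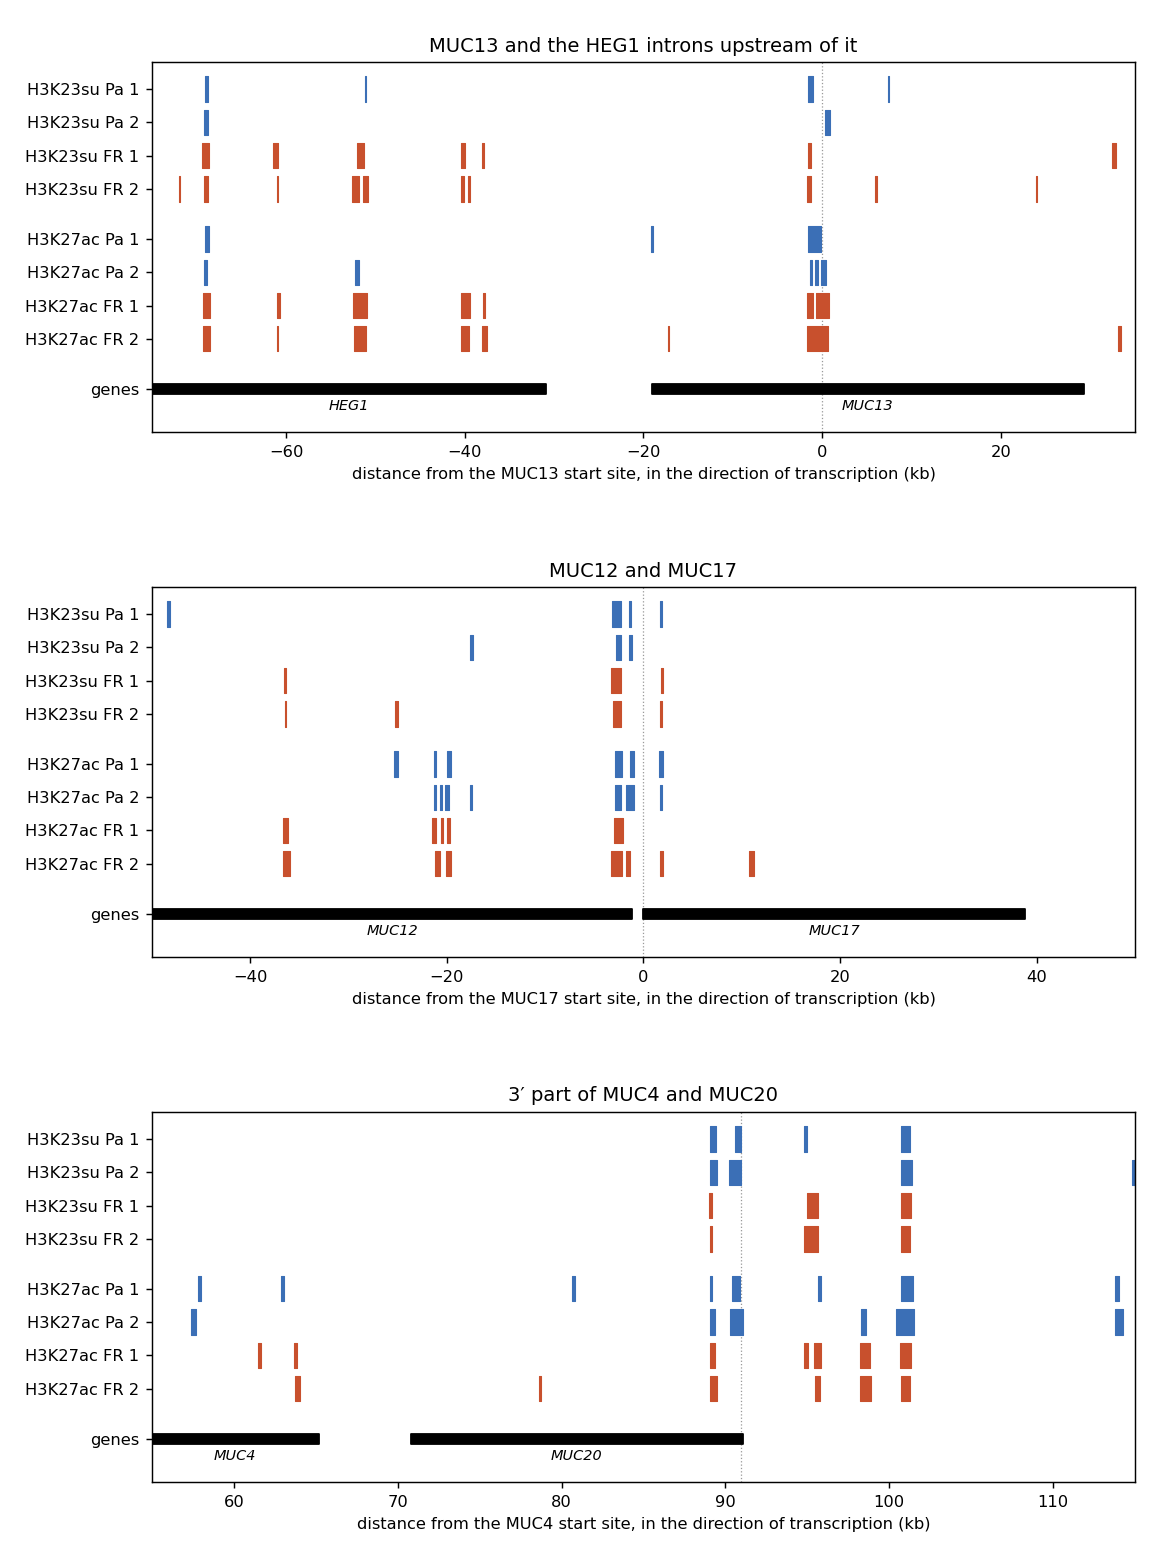
Peaks of each library around MUC13 and HEG1 (top), MUC12 and MUC17 (middle) and the 3′ part of MUC4 with MUC20 (bottom), plotted by distance in kb from the TSS of MUC13, MUC17 and MUC4 in the direction of their transcription; blue bars are HCT15-Pa peaks, red bars HCT15-FR peaks, black bars gene bodies and dotted lines start sites. Red bars without blue ones stand in both marks at −40198 and −61177 bp from MUC13 and at −36358 bp from MUC17, and blue bars without red ones stand at the dotted MUC20 start.

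The other genes of mucous secretion are given by list. Of 13 other mucins, 11 had no H3K23su peak at the TSS and 9 no H3K27ac peak (33.4% and 26.5% of all genes). MUC20 alone was occupied in all 4 libraries of each mark. None was HCT15-FR only or HCT15-Pa only in either mark. Of 18 genes of the goblet cell programme, 6 were occupied in all 4 libraries for H3K23su and 7 for H3K27ac (54.7% and 59.0% of all genes). Those listed in HCT15-FR alone were GFI1, RETNLB and BEST2 for H3K23su and SPDEF, AGR3, RETNLB and BEST2 for H3K27ac, against 1.87% and 1.42% of all genes. FCGBP for H3K23su and ITLN1 for H3K27ac were listed in HCT15-Pa alone (1.71% and 2.19% of all genes).

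SPDEF, a transcription factor of goblet cell maturation, had H3K27ac scores of 3.92 and 6.29 in HCT15-FR and none in HCT15-Pa, and its H3K23su was present in all 4 libraries. RETNLB, a goblet cell peptide, had H3K23su scores of 3.96 and 5.55 and H3K27ac scores of 3.75 and 7.67 in HCT15-FR, at its start. BEST2, a chloride and bicarbonate channel of colonic goblet cells, had scores of 3.76 and 4.23 in H3K23su and of 3.69 and 3.58 in H3K27ac, upstream of its start, and lost both calls with 1 kb around the TSS. FCGBP, which encodes a mucus component, had H3K23su scores of 5.41 and 3.95 across its start in HCT15-Pa. GFI1, another transcription factor of secretory cells, had H3K23su scores of 5.35 and 3.21 in HCT15-FR (percentiles 68.0 and 2.1), and with lists of equal length its call was lost. Many of these peaks were of low rank: with the stronger 50% of each list none of these goblet cell genes listed in HCT15-FR alone kept that call in either mark, and AGR2, present in 3 of the 4 H3K27ac libraries before, was the 1 goblet cell gene listed in HCT15-FR alone. ZG16 of the same list, present in all 4 H3K27ac libraries before, was then listed in HCT15-Pa alone.

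Of 15 genes of mucin O-glycosylation, 11 were occupied in all 4 libraries for H3K23su and 12 for H3K27ac, against 54.7% and 59.0% of all genes. GALNT5, a transferase that starts O-glycosylation, was the one gene listed in HCT15-Pa alone, in both marks (0.750% of all genes), with H3K23su scores of 6.23 and 5.68 and H3K27ac scores of 5.65 and 5.33. No gene of this list was HCT15-FR only.

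**Figure D5:**
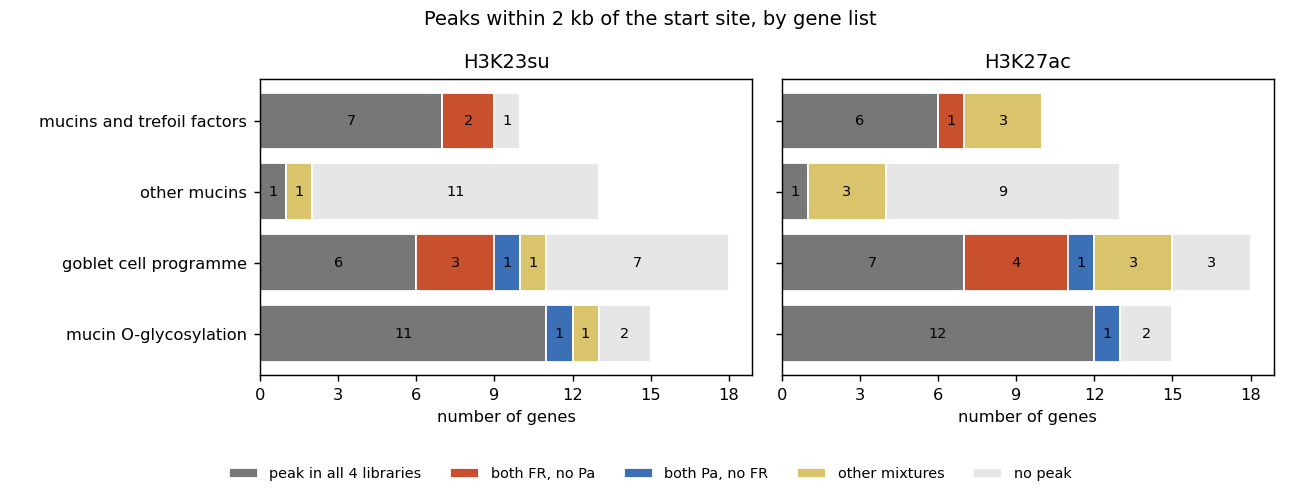
Number of genes of each list (bars, genes on the linear axis) by the presence of a peak within 2 kb of the TSS over the 4 libraries of a mark, for H3K23su (left) and H3K27ac (right). Red segments (both HCT15-FR libraries, no HCT15-Pa library) hold 2 of the 10 mucin and trefoil factor genes and 3 of the 18 goblet cell genes for H3K23su, and 1 and 4 for H3K27ac.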

How the data were processed

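The study measured H3K23su and H3K27ac by CUT&Tag in HCT15-Pa and HCT15-FR, with 2 libraries for each mark and line. Per the study's methods, the authors aligned reads to hg19 with Bowtie2, kept unique, properly paired, non-duplicate reads with SAMtools and called peaks in each library with MACS2, in broad mode for H3K27ac. The deposited lists give each peak's position and its −log10 p-value from the peak caller, with no read counts, so depth and sampling error are unknown here.

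Genes and start sites (Ensembl canonical transcript) were taken from GENCODE release 44 lifted to hg19. A peak was present at a TSS when at least 1 bp lay within 2 kb of it, and coverage was the length under peaks. Touching peaks from the 4 lists of each mark were joined into regions, which counted as listed in a library with 1 bp of overlap. Coverage was compared by two-sided exact permutation tests in Python 3.11.15 with numpy 2.4.6, pandas 2.3.3 and scipy 1.17.1. On simulated lists with 200 planted genes for each mark, all planted calls were recovered (100%). The regions described singly were those with the highest lower percentile, up to 6 for each mark and direction, with regions at the start sites of the 10 genes and those shared by both marks. The genes and lists were chosen with earlier results of these data known. The sequence at the TFF3 start is not reported here. The tandem repeat measure was chosen after the peaks were seen. Alternatives were the stronger 50% of each list, lists of equal length, windows of other sizes, other start sites, numbers of peaks, scaling to total covered length, stricter overlap, merging within 500 bp, leaving out each library and a replicate block.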

Additional observations from a re-analysis of the deposited data

Results flagged for a closer look

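In 3 genes the covered lengths of the 2 marks moved in opposite directions, with every HCT15-FR library on one side of every HCT15-Pa library in each mark. The difference between the marks was not tested. Within 2 kb of the MUC13 TSS, covered length, HCT15-FR minus HCT15-Pa, was −156.5 bp for H3K23su and 986 bp for H3K27ac. The parental H3K23su lengths came from different peaks, upstream of the TSS in replicate 1 and downstream of it in replicate 2. Within 2 kb of the MUC2 TSS it was 750 bp for H3K23su and −137.5 bp for H3K27ac. In the MUC4 window it was 283.5 bp for H3K23su and −877 bp for H3K27ac, and the H3K23su value changed sign when lengths were divided by the total covered length of each library. By score rather than length, MUC2 H3K27ac was higher in both HCT15-FR libraries (8.92 and 7.61 against 5.42 and 5.46).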

How the results depend on the processing

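Of 211 counts and shares recomputed under the alternatives, 145 stayed close to the value reported and 66 moved. With the stronger 50% of each list, HCT15-FR-only start sites fell to 1 (TFF3) and start sites occupied in all libraries to 2 for H3K23su, HCT15-FR-only genes of the related lists to 0 for H3K23su and to 1 for H3K27ac (goblet cell genes 0 and 1, the 1 being AGR2, which was not among the 4 reported), HCT15-Pa-only genes to 1 for H3K23su, HCT15-FR-only regions to 6 and 7 and HCT15-Pa-only H3K23su regions to 3, regions HCT15-FR only in both marks to 1, while H3K27ac coverage was higher for 7 genes and lower for 2. In that setting the goblet cell gene ZG16 was listed in HCT15-Pa alone for H3K27ac. With 1 kb around the TSS, 2 genes for H3K23su and 3 for H3K27ac were occupied in all libraries. With any annotated start, HCT15-FR-only genes were 1 and 0. With 10 kb windows, HCT15-FR-only regions were 4 and 6, HCT15-Pa-only regions 1 and 1, H3K27ac coverage was lower for 2 genes, and regions shared by both marks were 1 and 0. With 100 kb windows, these regions were 20 and 21, and 10 and 10, H3K27ac coverage was higher for 7 and lower for 0, and the MUC4 H3K23su difference was −627.5 bp. By number of peaks, H3K23su was higher for 5 and lower for 2, H3K27ac higher for 2 and lower for 0, and differences changed sign for MUC4 (−5.5 peaks), TFF1 and TFF2 (−0.5 each) in H3K23su and TFF3 (−1.0) in H3K27ac. Scaled to total covered length, H3K23su was lower for 2, H3K27ac higher for 2 and lower for 6, and MUC4 H3K23su (−1147 bp) and TFF3 H3K27ac (−285 bp) changed sign. With 50% of a region covered, HCT15-FR-only H3K23su regions were 18. The causes were not tested.

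Leaving out each library gave 15 to 20 HCT15-FR-only and 6 to 20 HCT15-Pa-only H3K23su regions, 17 to 28 and 9 to 25 H3K27ac regions, 1 to 2 HCT15-FR-only and 0 to 1 HCT15-Pa-only H3K27ac start sites, lower coverage for 0 to 1 (H3K23su) and 1 to 3 (H3K27ac) genes, and 1 to 3 regions HCT15-Pa only in both marks. With HCT15-Pa replicate 2 left out, the added H3K27ac start site was MUC5B, and with HCT15-FR replicate 2 left out the HCT15-Pa-only one was MUC17. Same-numbered libraries did not deviate together (r = 0.0178 and −0.0117 over 20136 genes). Counted per replicate block, HCT15-FR-only regions were 24 and 31 and HCT15-Pa-only regions 21 and 26.5, and coverage was lower for 1 and 2 genes.

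With 2 libraries in a group no p-value can fall below 0.333. Without read counts, a missing peak cannot be told from a peak just under the caller's threshold.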
